A study of Mus musculus with 2 samples.

Results

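The nuclear genes of the mitochondrial respiratory chain and ATP synthase were described in TUBO cells, a mouse breast cancer line that arose in an animal transgenic for rat Her2/neu. Members were taken by gene name from the deposited count table: the Nduf genes, Sdha to Sdhd, the Sdhaf, Uqcr and Atp5 genes, and the Cox genes numbered 4 to 8, leaving out names that mark pseudogenes. This gave 96 of the 31017 genes in the table. They comprise 74 genes of structural subunits, 12 of assembly factors, 8 alternative complex IV genes of restricted tissue distribution, the supercomplex factor gene Cox7a2l and Atp5s, which encodes factor B of ATP synthase. The study holds 1 group, untreated TUBO cells grown flat on plastic, with 2 RNA-seq libraries called replicate 1 and replicate 2. No condition was compared with another, and the labels do not say whether the libraries came from separate cultures. Each level is given as CPM, the count scaled to the library size, in replicate 1 and then in replicate 2. Replicate 1 held 35453278 counts and replicate 2 held 34098259 counts, so a count of 0 allows up to 0.0842 and 0.0885 CPM, covering counting error only.

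The respiratory chain sits in the inner mitochondrial membrane. Complex I (NADH dehydrogenase) and complex II (succinate dehydrogenase) pass electrons to ubiquinone, complex III (the cytochrome bc1 complex) passes them on to cytochrome c, and complex IV (cytochrome c oxidase) reduces oxygen. Complexes I, III and IV pump protons, and complex V (ATP synthase) lets them flow back through its membrane part, Fo, while its catalytic head, F1, makes ATP. Complex II is built from nuclear genes alone, whereas the other complexes also hold subunits from the mitochondrial genome. Assembly factors help to build a complex without staying in it.

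All of the structural subunit genes and all of the assembly factor genes were detected, which here means 1 CPM or more in both libraries. In total 89 of the 96 members were detected, against 37.7% of all genes in the table and 50.7% of its protein-coding genes. The 7 members that fell short were all alternative complex IV genes. At 100 CPM or more in both libraries stood 22 members, all of them structural subunit genes, against 7.46% of all genes. The members took 0.7996% and 0.791% of the counts of the libraries (95% Wilson intervals 0.797% to 0.803% and 0.788% to 0.794%). Complex V took 0.337% and 0.327%, complex I 0.203% and 0.203%, complex IV 0.143% and 0.144%, complex III 0.0673% and 0.0677% and complex II 0.0493% and 0.0487%. Complex V has fewer nuclear genes than complex I and took the larger share of counts in both libraries. The epithelial marker genes Epcam, Cdh1, Krt8, Krt18 and Erbb2 were all detected, and none of 9 markers of leukocytes, fibroblasts, endothelium, muscle and fat was. Whether reads of the rat Her2/neu transgene were counted under Erbb2 was not tested.

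Levels of different genes were compared per length, as CPM divided by the exonic length of the gene in kb. Exonic length counts every annotated exon, so for 40 of the 74 subunit genes the level is over 1.5 times higher when the principal transcript of the gene is used as the length. The median over all detected protein-coding genes moves likewise, being 7.996 ± 0.00135 CPM per kb on exonic length and 12.4 CPM per kb on principal transcript length. Both medians are therefore given for each group. Structural subunit genes had a median level of 42.3 ± 0.121 CPM per kb, or 71.6 CPM per kb on principal transcript length. Assembly factor genes had 5.83 ± 0.0899 CPM per kb, or 8.19 CPM per kb on principal transcript length. Among detected protein-coding genes ranked by level on exonic length, the median percentile was 91.4 for the subunit genes and 39.5 for the assembly factor genes. Above the 50th percentile stood 72 of the 74 subunit genes, and 3 of the 12 assembly factor genes. The gap between both median levels on the log2(CPM per kb + 1) scale was 2.69 in replicate 1 and 2.66 in replicate 2 (mean 2.67 ± 0.02, SD, n = 2), far more than the difference between the libraries. No p is attached to such gaps, since the smallest that an exact sign test over 2 libraries allows is 0.5. Other genes of large assemblies were set beside these medians. The subunit median was close to that of 36 detected proteasome genes, at 38.01 ± 0.369 CPM per kb. On principal transcript length the medians were 71.6 ± 0.985 for subunit genes and 72.03 ± 1.96 for proteasome genes, closer than the spread of the libraries. The subunit median was above that of 77 detected mitochondrial ribosomal protein genes on both lengths, at 13.02 ± 0.485 CPM per kb and 21.3.

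**Figure D1:**
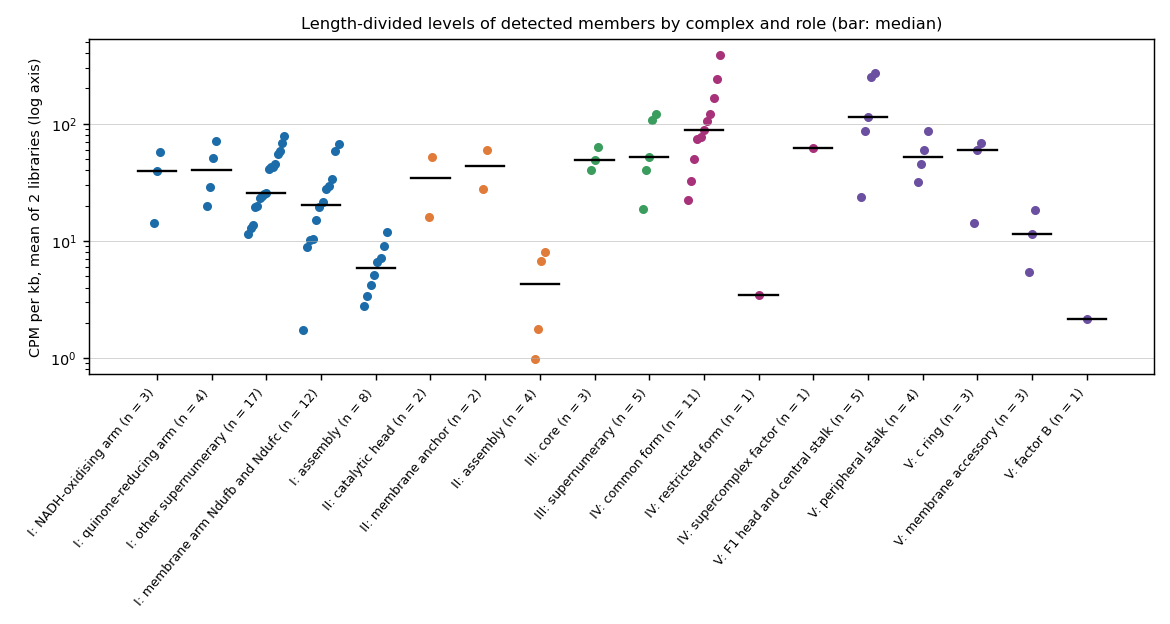
Level of every detected member per kb of exonic length, grouped by role within each complex, on a log axis. Points are means of the 2 libraries and bars are medians of each group. F1 genes of complex V and common forms of complex IV hold the highest points, and the assembly factors lie at the low end.

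By complex, the median level of structural subunit genes ran from complex IV through V, III and II to complex I. It was 88.4 ± 1.81 CPM per kb for the 11 common complex IV genes, 58.6 ± 0.512 CPM per kb for the 15 genes of complex V, 50.5 ± 0.928 CPM per kb for the 8 of complex III, 40.2 ± 0.491 CPM per kb for the 4 of complex II and 26.8 ± 0.302 CPM per kb for the 36 of complex I. On principal transcript length the medians were 200.2, 124, 70.4, 45.4 and 49.2 CPM per kb in the same order, so complexes II and I changed places. The libraries differed by less than any of these steps. The genes within a complex spread far more widely, from 22.2 to 389 CPM per kb in complex IV and from 5.42 to 273 in complex V on exonic length. Complex V subunit genes exceeded those of complex I by 1.10 in replicate 1 and 1.10 in replicate 2 in median log2(CPM per kb + 1).

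**Figure D2:**
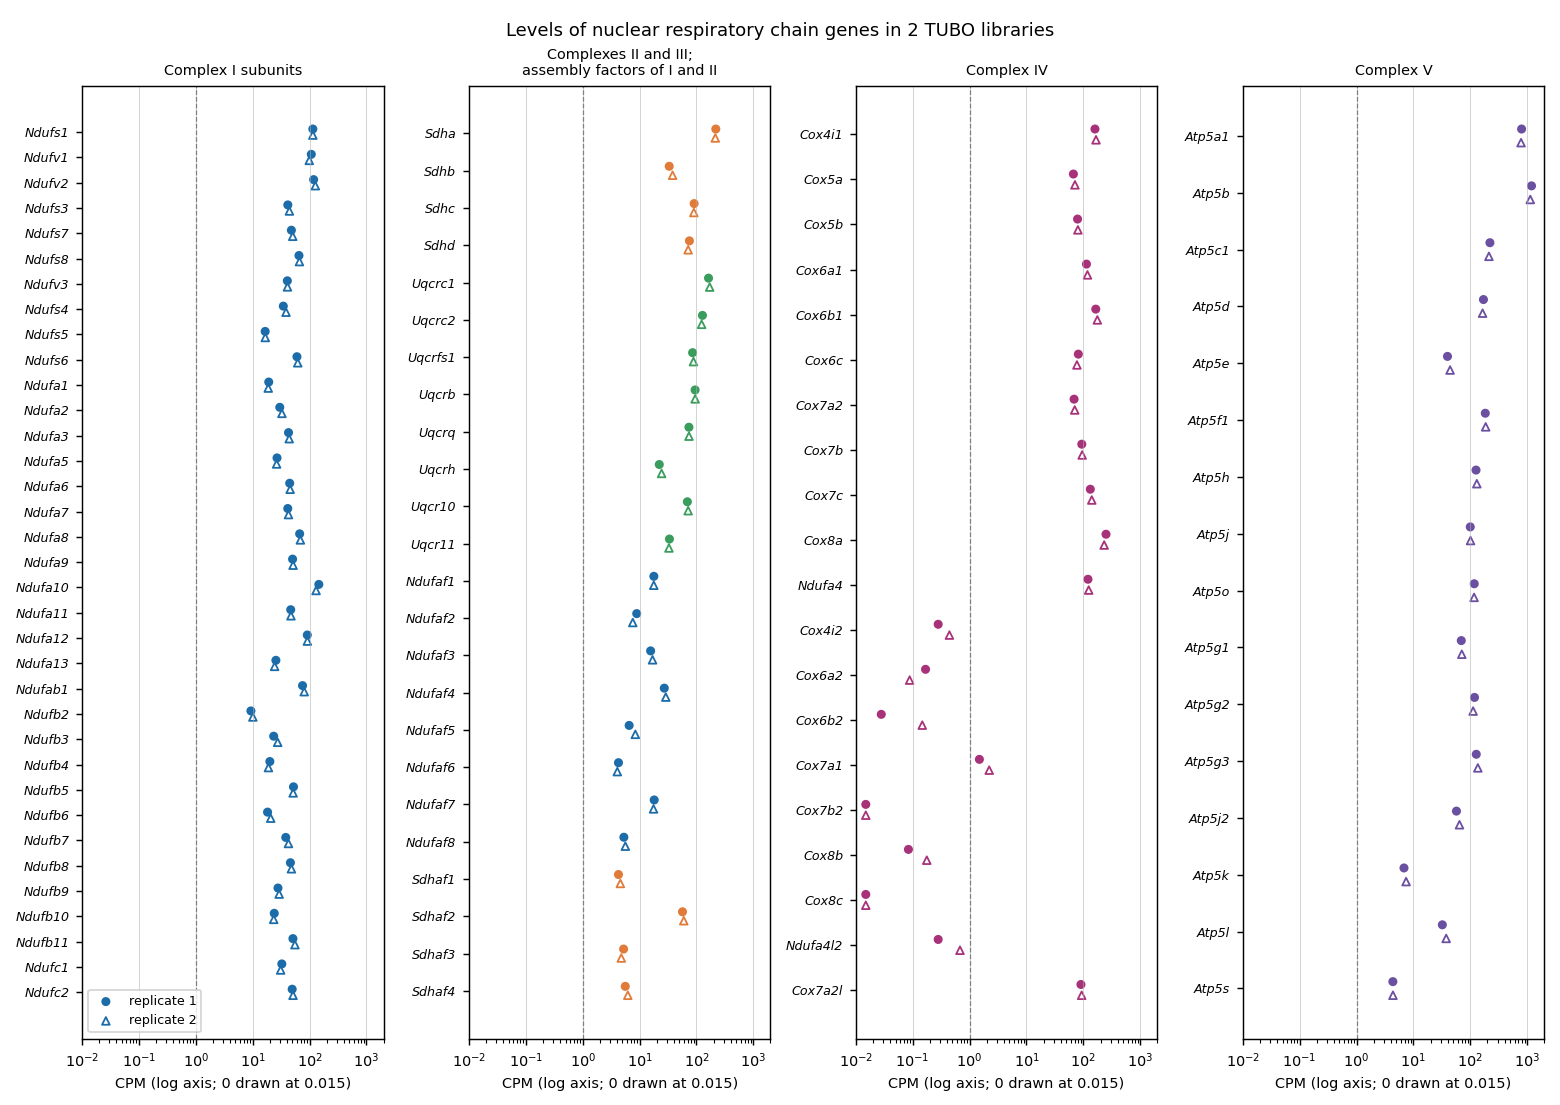
Level of the members in CPM, on a log axis with 0 drawn at 0.015, with a filled circle for replicate 1 and an open triangle for replicate 2. Panels and colours give the complex, and the dashed line marks 1 CPM. Both libraries lie close together for each gene except some of the alternative complex IV forms, 7 of which lie left of the line.

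Promoters of the members were read to set their sequence beside the levels. Nuclear respiratory genes are known targets of the transcription factors NRF1, GABP, YY1 and ERR. RefSeq promoter windows on GRCm38.p6, 250 bases before and 50 bases after each annotated start, were matched for 80 of the 96 members, giving 85 windows. The letters GCGCNTGCG, from the NRF1 motif, were found on either strand in 35.3% of the 68 windows of subunit genes and 36.4% of the 11 windows of assembly factor genes, against 13.996% of the 11446 windows of detected protein-coding genes. AANATGGCG, for YY1, was in 14.7% and 18.2%, against 5.29%. CCGGAAGT, for ETS factors such as GABP, was in 7.35% of subunit windows and in none of the assembly factor windows, against 8.61%. TCAAGGTCA, for ERR, was in 2.94% of subunit windows, which is 2 windows, and in none of the assembly factor windows, against 0.288%. TATAAA, the TATA box letters, was in 8.82% and 9.09%, against 6.82%. Over all 21262 windows of protein-coding genes, detected or not, the shares were 8.61% for NRF1, 3.12% for YY1, 5.15% for ETS, 0.334% for ERR and 12.6% for the TATA box. The letters of 1 motif do not overlap those of another in the windows printed further on. A match describes letters in a window and is not a measured binding site.

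**Figure D3:**
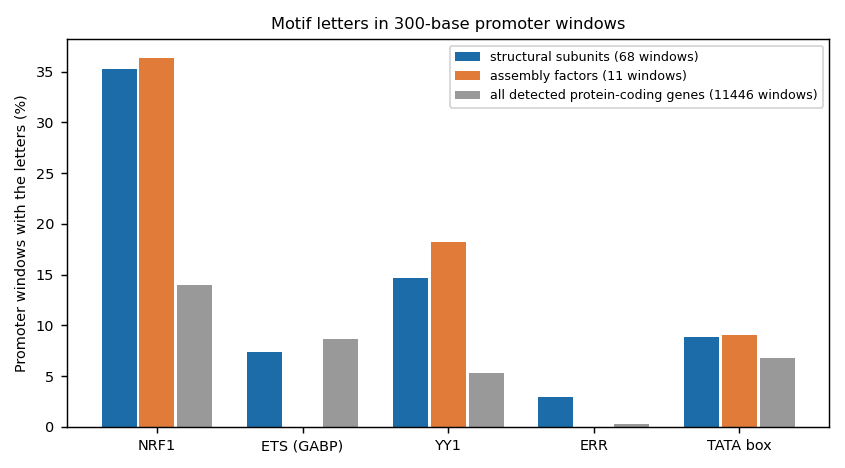
Share of 300-base RefSeq promoter windows, in percent, that hold the letters of each motif on either strand, for subunit genes (68 windows), assembly factor genes (11 windows) and all detected protein-coding genes (11446 windows). The NRF1 and YY1 bars of both member groups are above those of all detected protein-coding genes, and the ETS bars are not.

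Complex I has a hydrophilic arm, where NADH is oxidised and the electrons run down to ubiquinone, and a membrane arm. Of its 36 nuclear structural subunit genes all were detected, from 1.73 to 79.1 CPM per kb. Ndufv1, which binds NADH and the flavin, stood at 108 and 99.1 CPM (39.2 ± 2.27 CPM per kb, SD, n = 2). The electron carriers near the flavin, Ndufs1 and Ndufv2, which hold iron-sulphur clusters, had 114 and 114 CPM and 118 and 127 CPM. These genes of the NADH-oxidising arm were close in CPM, and differed per length, at 14.2 ± 0.002496 CPM per kb for Ndufs1 and 57.03 ± 2.78 CPM per kb for Ndufv2. Ndufs1 has 8086 exonic bases and a principal transcript of 2661 bases, on which its level was 43.02 CPM per kb, against 72.2 for Ndufv2. In the quinone-reducing arm the iron-sulphur subunit genes Ndufs8 and Ndufs7 had 65.3 and 66.5 CPM and 48.1 and 50.7 CPM. Ndufs3, also of this arm, had 41.6 and 44.4 CPM, and 39.7% of its 50-base windows also occur in transcripts of other genes, so its count is uncertain. Of the membrane arm subunits made by the mitochondrial genome, mt-Nd1, which shares no window with other transcripts, had 3017 and 3211 CPM.

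The supernumerary subunits of complex I surround this core without carrying electrons. Ndufa8 was the highest per length of all complex I genes at 79.1 ± 1.63 CPM per kb (67.1 and 69.1 CPM), and Ndufs6 reached 68.1 ± 1.58 CPM per kb (60.1 and 62.2 CPM). The most abundant of them in counts was Ndufa10, with 146 and 130.5 CPM, higher in replicate 1. Ndufab1, the gene of the mitochondrial acyl carrier protein, which also serves fatty acid synthesis, had 75.4 and 80.8 CPM over 6883 exonic bases, hence 11.3 ± 0.5497 CPM per kb. The 12 Ndufb and Ndufc genes, most of whose products lie in the membrane arm, had a median of 20.4 ± 0.509 CPM per kb, against 25.8 ± 0.313 CPM per kb for the 17 other supernumerary genes. On principal transcript length the medians were 37.6 and 54.9, in the same order.

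Ndufb2, a membrane arm subunit gene, was the lowest structural subunit gene per length in the whole set (chromosome 6, 39592574 to 39603382, GRCm38). It had 9.34 and 10.1 CPM and 1.73 ± 0.0969 CPM per kb, at percentile 13.8 of detected protein-coding genes, and stayed low on principal transcript length at 2.23 CPM per kb. Its principal transcript is 4371 bases long in the annotation, and 5.33% of its windows are shared, first among the partners being Braf. Next lowest of complex I on exonic length were Ndufb7 at 8.95 ± 0.692 CPM per kb and Ndufb4 at 10.2 ± 0.416 CPM per kb. These ranks rest on the length used for Ndufb7, which reached 64.98 CPM per kb on principal transcript length, against 20.1 for Ndufb4. Ndufb4 shares 36.98% of its windows with other transcripts, first among them those of its copy Ndufb4c.

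The 8 complex I assembly factor genes lay between 2.78 and 11.9 CPM per kb, and all were below 30 CPM in both libraries. Ndufaf1, which acts early in building the membrane arm, was highest per length at 11.9 ± 0.0297 CPM per kb (17.8 and 17.8 CPM). Ndufaf3 and Ndufaf4, which work together on the quinone arm, had 15.7 and 16.9 CPM and 27.2 and 28.9 CPM. The lowest were Ndufaf2, a late-acting factor, at 2.78 ± 0.312 CPM per kb (8.92 and 7.61 CPM), Ndufaf6 at 3.37 ± 0.112 CPM per kb (4.26 and 4.07 CPM) and Ndufaf5, a hydroxylase that modifies the Ndufs7 protein, at 4.19 ± 0.738 CPM per kb (6.56 and 8.43 CPM). On principal transcript length Ndufaf2 moved to 12.2 CPM per kb, close to Ndufaf1 at 12.3. Of the complex I factors named outside the Ndufaf series, the 8 in the table were all detected, from 1.79 CPM per kb for the iron-sulphur carrier gene Nubpl to 15.6 for the membrane arm factor gene Timmdc1. The second highest and second lowest were Dmac1 at 9.88 CPM per kb and Tmem126b at 3.62, both genes of membrane arm factors.

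Complex II oxidises succinate and belongs to the citric acid cycle as well. Its flavoprotein gene Sdha was the most abundant, at 219 and 214 CPM (52.5 ± 0.7604 CPM per kb). The iron-sulphur subunit gene Sdhb was lowest of the 4 in CPM and per exonic length, at 33.2 and 38.1 CPM (15.9 ± 1.54 CPM per kb). On principal transcript length Sdhc was lowest, at 28.5 CPM per kb against 31.2 for Sdhb. The membrane anchor genes Sdhc and Sdhd had 91.01 and 89.99 CPM (27.8 ± 0.222 CPM per kb) and 75.2 and 71.5 CPM (59.6 ± 2.15 CPM per kb). In the protein these subunits are present in equal numbers, while the levels of their genes per kb of exonic length spanned a factor of 3.74. Sdhd was highest on exonic length and Sdha on principal transcript length, at 74.7 against 59.6 CPM per kb for Sdhd. Sdhb differed between the libraries, being higher in replicate 2. The assembly factor gene Sdhaf2, whose product attaches the flavin to Sdha, had 56.9 and 59.9 CPM (8.11 ± 0.297 CPM per kb). Sdhaf4 had 5.61 and 6.22 CPM. Sdhaf1 and Sdhaf3, whose products serve the iron-sulphur subunit, had 4.26 and 4.5997 CPM and 5.25 and 4.78 CPM, and Sdhaf3 was the lowest detected member of all per length, at 0.984 ± 0.0652 CPM per kb. Sdhaf1 shares 68.99% of its windows with E130208F15Rik and other transcripts, so its count is uncertain.

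The promoter window of Sdhd is shown because it holds the letters of both NRF1 and ERR. It also covers the starts of Sdhd and Timm8b, which run in opposite directions 98 bases apart. Timm8b, which encodes a small chaperone of mitochondrial import, had 29.3 and 31.4 CPM. The window spans chr9:50603800-50604099 (GRCm38.p6, reverse strand), and capitals mark the motif letters, NRF1 first and then ERR, both on the other strand.
Sdhd: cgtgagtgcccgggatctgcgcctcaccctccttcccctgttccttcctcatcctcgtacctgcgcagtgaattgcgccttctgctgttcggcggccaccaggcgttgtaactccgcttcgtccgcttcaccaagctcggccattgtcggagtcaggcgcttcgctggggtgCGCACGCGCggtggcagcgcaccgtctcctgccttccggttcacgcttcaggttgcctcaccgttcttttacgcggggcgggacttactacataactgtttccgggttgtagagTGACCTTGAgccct

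Complex III carries electrons from ubiquinol to cytochrome c. All 8 nuclear genes taken by name were detected at 1 CPM or more. The core protein genes Uqcrc1 and Uqcrc2 had 163 and 171 CPM and 127 and 123 CPM, and the gene of the Rieske iron-sulphur protein, Uqcrfs1, had 85.5 and 88.6 CPM. Per length Uqcrfs1 was the highest of these, at 63.9 ± 1.61 CPM per kb, with Uqcrc2 at 49.1 ± 1.14 CPM per kb and Uqcrc1 at 40.4 ± 1.34 CPM per kb. On principal transcript length Uqcrc1 became the highest, at 101 CPM per kb. Of the small subunit genes, Uqcr10 (120.5 ± 2.74 CPM per kb) and Uqcrb (108 ± 0.136 CPM per kb) were highest and Uqcrh, encoding the hinge protein, was lowest at 18.8 ± 1.25 CPM per kb (22.2 and 24.4 CPM). Uqcrb shares 43.4% of its windows with other transcripts, led by Gm16089. The mitochondrially encoded cytochrome b gene mt-Cytb had 2217 and 2411 CPM. The other genes of this complex on the list were all detected as well, 7 of 7. Cyc1, which encodes cytochrome c1, had 78.8 and 80.5 CPM and 36.98 CPM per kb, and the assembly factor gene Uqcc2 had 36.96. Lowest were the Rieske protein chaperone gene Lyrm7 at 0.961 CPM per kb and Uqcc1 at 3.94. The somatic cytochrome c gene Cycs had 38.04 and 37.7 CPM, and the testis cytochrome c gene Cyct had no count.

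Complex IV reduces oxygen at a core made by the mitochondrial genome, and its nuclear subunits surround that core. Several of them have a common form and a second gene used in heart and skeletal muscle, lung or testis. Cox8a, the common form of the smallest subunit, was the highest member per length, at 389 ± 20.7 CPM per kb (249.6 and 232 CPM). The gene lies on chromosome 19, 7215153 to 7217616, GRCm38. Cox6b1, on the side that faces cytochrome c, followed at 241 ± 10.9 CPM per kb (165 and 176 CPM), and Cox6a1 at 164 ± 4.74 CPM per kb (113 and 118 CPM). Cox4i1, the largest nuclear subunit, had 159.6 and 167 CPM, 105 ± 3.16 CPM per kb, and 213 CPM per kb on principal transcript length. Ndufa4, once counted with complex I and now placed in complex IV, had 120.3 and 124 CPM. The lowest common forms per length were Cox6c at 22.2 ± 0.878 CPM per kb (81.4 and 76.96 CPM), Cox5a at 32.8 ± 1.46 CPM per kb (66.7 and 71.03 CPM) and Cox5b at 50.1 ± 0.506 CPM per kb (78.9 and 80.1 CPM). Cox6c and Cox5a were far higher on principal transcript length, at 107 and 107 CPM per kb, and Cox5b, at 91.9 CPM per kb, was then the lowest of the 11 common-form genes. Cox7a2l, related to Cox7a2 and found between complexes III and IV in supercomplexes, had 90.5 and 93.1 CPM (62.1 ± 1.26 CPM per kb).

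The common form was far above its alternative in every pair. Cox4i1 had 5688 and 5647 counts, against 10 and 15 counts for Cox4i2, the lung form. Cox6a1 had 4031 and 3995 counts, against 6 and 3 counts for Cox6a2, the heart and muscle form. Cox6b1 had 5875 and 5960 counts, against 1 and 5 counts for Cox6b2, a testis form. Cox7b and Cox7b2 showed the same order, with 3337 and 3227 counts for Cox7b and no count for Cox7b2. Cox8a had 8898 and 7852 counts, against 3 and 6 counts for Cox8b, the heart and muscle form, and none for Cox8c, the testis form. Ndufa4 had 4289 and 4201 counts, against 10 and 23 counts for Ndufa4l2, a gene known to respond to low oxygen. Each gene has a single value in each library, so the order within a pair was not tested. The alternative forms together gave 83 counts in replicate 1 and 127 in replicate 2.

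Cox7a1, the heart and muscle form of Cox7a, was the one alternative form above 1 CPM in both libraries (chromosome 7, 30184144 to 30186078, GRCm38). It had 53 and 75 counts (1.49 and 2.21 CPM), against 2444 and 2387 counts (68.6 and 70.4 CPM) for Cox7a2, the common form. Per length Cox7a2 was 26.1 times as abundant as Cox7a1 in replicate 1 and 18.04 times in replicate 2. None of the windows of Cox7a1 is shared with another transcript. The muscle markers were near 0 in the same libraries, with 0 and 3 counts for Acta1, 4 and 1 counts for Ckm and none for Myh7. For the other pairs whose alternative form had over 3 counts in both libraries, the ratio per length was 289 and 191 for Cox4i1 over Cox4i2 and 340.1 and 145 for Ndufa4 over Ndufa4l2. Set against a floor of 3 counts per library, Cox7b was at least 497-fold and 480.2-fold higher than Cox7b2, and Cox8a at least 2195-fold and 1937-fold higher than Cox8c. Over all 8 pairs the median difference in log2(CPM per kb + 1), common minus restricted, was 6.65 in replicate 1 and 6.77 in replicate 2.

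**Figure D4:**
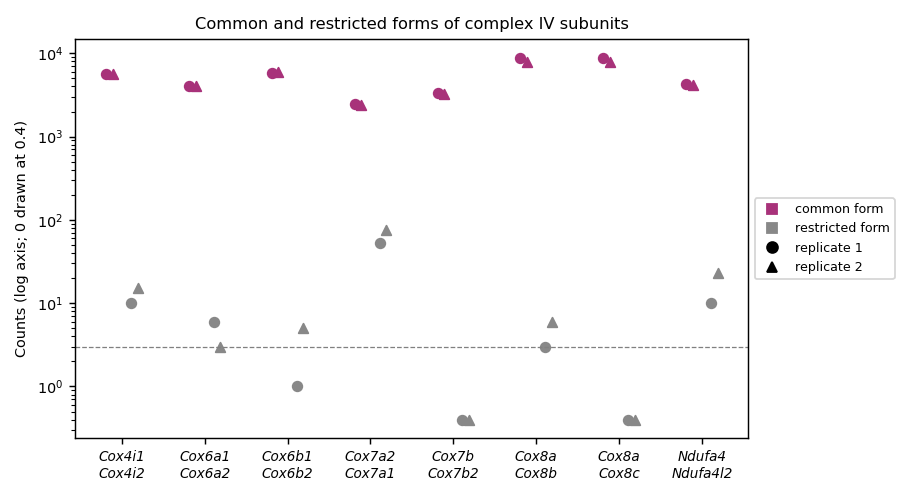
Counts of the common form and the alternative form of each complex IV pair, with 1 point for each of the 2 libraries, on a log axis with 0 drawn at 0.4 and a dashed line at 3 counts. Cox7a2 is the lowest common form, with 2444 and 2387 counts, and Cox7a1 the highest alternative form, with 53 and 75.

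The promoters of 2 pairs are shown, chosen after their values were seen: Cox8a was the highest member per length with Cox8b close to 0, and Cox7a1 was the sole detected alternative form, beside Cox7a2. Capitals mark motif letters. They are ETS letters in Cox8a, on the other strand, and TATA box letters in Cox8b, and no searched motif was found in the Cox7a windows. The windows span chr19:7217567-7217866 for Cox8a, chr7:140900397-140900696 for Cox8b and chr9:79759804-79760103 for Cox7a2 on the reverse strand, and chr7:30183921-30184220 for Cox7a1 on the forward strand (GRCm38.p6). They hold 19 CG dinucleotides in Cox8a against 2 in Cox8b, and 20 in Cox7a2 against 7 in Cox7a1.
Cox8a: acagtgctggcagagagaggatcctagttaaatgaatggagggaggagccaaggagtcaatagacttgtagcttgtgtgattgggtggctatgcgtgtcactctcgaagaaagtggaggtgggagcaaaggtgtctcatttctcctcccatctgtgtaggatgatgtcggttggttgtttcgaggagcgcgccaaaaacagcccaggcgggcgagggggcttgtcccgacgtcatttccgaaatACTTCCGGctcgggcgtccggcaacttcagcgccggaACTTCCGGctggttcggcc
Cox8b: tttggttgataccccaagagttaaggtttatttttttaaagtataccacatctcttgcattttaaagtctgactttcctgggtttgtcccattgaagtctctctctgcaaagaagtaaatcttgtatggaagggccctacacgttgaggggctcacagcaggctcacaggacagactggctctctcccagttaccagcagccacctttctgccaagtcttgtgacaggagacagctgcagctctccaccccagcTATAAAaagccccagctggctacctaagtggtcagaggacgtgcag
Cox7a2: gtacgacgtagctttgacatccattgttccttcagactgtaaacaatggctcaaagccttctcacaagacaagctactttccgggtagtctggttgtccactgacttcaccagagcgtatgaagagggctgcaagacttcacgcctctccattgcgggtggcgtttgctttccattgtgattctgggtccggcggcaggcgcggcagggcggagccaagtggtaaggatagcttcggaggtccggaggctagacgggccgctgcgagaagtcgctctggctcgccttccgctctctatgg
Cox7a1: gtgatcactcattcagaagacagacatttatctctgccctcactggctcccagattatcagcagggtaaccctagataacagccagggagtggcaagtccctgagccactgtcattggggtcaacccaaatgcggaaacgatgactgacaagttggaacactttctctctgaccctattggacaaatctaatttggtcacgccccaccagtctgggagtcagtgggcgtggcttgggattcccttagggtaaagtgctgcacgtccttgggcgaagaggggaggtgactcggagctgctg

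Of 19 complex IV assembly genes on the list, which handle copper, haem and membrane insertion, 16 were detected. The highest per length were Cox14 at 36.1 CPM per kb and Coa3 at 31.999, both genes of factors for the Cox1 protein. The lowest detected were the copper carrier gene Cox17 at 1.62 CPM per kb and Cox16 at 1.66, of whose windows 74.5% are shared, so that its level is uncertain. Sco2, a copper chaperone gene, and Pet117 had no count, and Cox20 had 9 and 2 counts. The values of these last genes are uncertain too, since 88.2% of the windows of Sco2, every window of Pet117 and 68.2% of those of Cox20 also occur in transcripts of other genes, led by Tymp, Kat14 and Hnrnpu.

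Complex V took the largest share of counts, and most of it came from the F1 head. The F1 genes together took 0.242% and 0.232% of all counts. Atp5b, which encodes the catalytic beta subunit (chromosome 10, 128083273 to 128090391, GRCm38) was the most abundant member in CPM at 1187 and 1130.3 CPM (273 ± 9.45 CPM per kb), followed by Atp5a1, the alpha subunit, at 795 and 778 CPM (251 ± 3.89 CPM per kb). On principal transcript length Atp5b was the highest of all members, at 605 CPM per kb, ahead of Cox8a at 437. The rotor subunits of F1 were lower, with 221 and 212 CPM for Atp5c1 (gamma), 169.8 and 164 CPM for Atp5d (delta) and 39.6 and 44.1 CPM for Atp5e (epsilon). F1 holds several alpha and beta subunits for a single gamma, delta and epsilon. In level per kb the order was beta, alpha, gamma, delta and epsilon on both lengths, at 273, 251, 113, 86.6 and 23.8 CPM per kb on exonic length.

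The peripheral stalk holds the head still while the rotor turns. Its genes Atp5f1, Atp5h, Atp5j and Atp5o lay between 32.01 and 87.2 CPM per kb, and Atp5h was highest. In counts Atp5f1 led with 183 and 186 CPM. Atp5f1, Atp5h and Atp5o share 37.6%, 36.9% and 45.6% of their windows with other transcripts. Of the membrane accessory genes, Atp5k was the lowest structural gene in CPM, at 6.82 and 7.43 CPM (11.6 ± 0.704 CPM per kb), and Atp5l the lowest structural subunit gene of complex V per exonic length, at 5.42 ± 0.598 CPM per kb (32.2 and 37.6 CPM). Atp5l has 6443 exonic bases and a principal transcript of 544 bases, on which it had 64.2 CPM per kb, and 84.8% of its windows are shared, so its count and its rank are uncertain. Atp5j2 had 56.98 and 64.4 CPM. Atp5s, the factor B gene, was low at 4.35 and 4.36 CPM (2.14 ± 0.00533 CPM per kb).

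The c ring, which turns as protons pass, is made from a single protein encoded by 3 genes that differ in the leader removed on import. Atp5g3 had 127 and 135 CPM, Atp5g2 118 and 112 CPM and Atp5g1 69.3 and 70.8 CPM. Of the counts of these genes, Atp5g3 took 41.5 ± 1.55%, Atp5g2 36.4 ± 1.72% and Atp5g1 22.1 ± 0.166% (SD, n = 2). Per exonic length the shares were 42.03%, 48.01% and 9.96%, and on principal transcript length 51.3%, 44.5% and 4.198%. Atp5g1 was lowest on every scale, and the order of Atp5g3 and Atp5g2 changed with the length used. Atp5g2 shares 38.3% of its windows with other transcripts and Atp5g3 none.

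The promoters of Atp5b and Atp5g3 are shown as those of the most abundant member and of the c ring gene with the most counts. The Atp5b window spans chr10:128083057-128083356 on the forward strand, and its capitals mark YY1 letters, on the other strand. The Atp5g3 window spans chr2:73911277-73911576 on the reverse strand (both GRCm38.p6), and its capitals mark ERR letters on the other strand and then NRF1 letters.
Atp5b: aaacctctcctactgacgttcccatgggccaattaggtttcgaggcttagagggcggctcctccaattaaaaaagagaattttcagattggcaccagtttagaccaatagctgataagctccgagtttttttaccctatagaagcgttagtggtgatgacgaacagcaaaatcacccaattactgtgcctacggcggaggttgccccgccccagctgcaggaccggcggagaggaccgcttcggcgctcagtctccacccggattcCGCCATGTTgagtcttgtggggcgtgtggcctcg
Atp5g3: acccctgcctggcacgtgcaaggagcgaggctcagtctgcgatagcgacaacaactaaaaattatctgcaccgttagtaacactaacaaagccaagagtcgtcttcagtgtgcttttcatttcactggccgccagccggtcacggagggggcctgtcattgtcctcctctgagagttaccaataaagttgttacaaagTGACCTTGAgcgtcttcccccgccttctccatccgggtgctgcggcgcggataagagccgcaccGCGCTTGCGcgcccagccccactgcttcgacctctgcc

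Of the 7 other complex V genes on the list all were detected. Usmg5, which encodes a small subunit of the dimer, had 119 and 136 CPM, and the assembly factor gene Atpaf2 40.9 and 41.3 CPM. They were the highest per length, at 46.3 and 19.2 CPM per kb. The lowest were Atpaf1, an F1 assembly factor gene, at 2.65 CPM per kb and Fmc1 at 7.02. No length was matched for 2010107E04Rik, which had 45.2 and 49.1 CPM. The other enzymes that feed ubiquinone were detected too, with the glycerol-phosphate dehydrogenase gene Gpd2 at 17.1 CPM per kb, the electron-transferring flavoprotein dehydrogenase gene Etfdh at 7.38 and the pyrimidine synthesis gene Dhodh at 2.03. All 11 genes of known regulators on the list were detected, with the coactivator gene Pprc1 highest per length at 21.9 CPM per kb, the GABP subunit gene Gabpa next at 19.4, and Nrf1 at 4.605 and the coactivator gene Ppargc1b at 1.04 lowest. Over the whole list of pathway genes outside the names chosen, 53 of the 57 in the table were detected.

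The order of the subunit genes by level per kb was nearly the same in both libraries (Spearman's rho 0.997 across 74 genes, as a description). Each gene was tested between them with a two-sided exact binomial test, adjusted by Benjamini-Hochberg over 13336 genes. It compares one library with the other, and accounts for counting error alone. Of the 89 members kept for the test 12 (13.5%) were called at an adjusted p under 0.05, against 8.13% of all genes kept. In replicate 2, 8 of them were higher and 4 lower, against 3.67% and 4.46% of all genes. That split rests on the scaling of the libraries: by total counts 5 were higher and 8 lower, and by DESeq2 size factors 6 were higher and 5 lower. The calls under every one of 5 scalings were 9, of which 5 were higher and 4 lower. All 12 called genes encode structural subunits, which are 74 of the members kept, and none belongs to complex III. With 8.13% of all genes called, few or no calls would fall among the 8 complex III genes or the 12 assembly factor genes. The assembly factor genes also had a median of only 7.88 CPM. With edgeR's exact test at a common dispersion, none of the 89 members was called, against 0.142% of all genes, and 7 members had an unadjusted p under 0.05, as 29 had by the binomial test. That dispersion was estimated from these same libraries as a single group. It therefore takes in the differences between them, few calls can follow, and the result is no check on the binomial calls. The binomial test calls smaller differences at higher counts, so members were also set beside genes of like level. Between 40.6 and 116 CPM, the middle range of the subunit genes, 2 of 36 subunit genes were called, against 283 of 3392 genes of all kinds, or 5.56% against 8.34%. Most of the called subunit genes lay above or below this range, where no share of all genes was taken. The comparison therefore does not cover them.

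The called differences were small. Higher in replicate 2 under every scaling were Ndufb3, a membrane arm subunit of complex I (23.5 and 27.6 CPM, log2 ratio 0.23, binomial adjusted p = 0.01297), Atp5l (0.23, adjusted p = 0.003404), Sdhb (0.20, adjusted p = 0.01297), Atp5j2 (0.18, adjusted p = 0.00211) and Cox6b1 (0.09, adjusted p = 0.01005). Lower in replicate 2 under every scaling were Ndufa10 (-0.16, adjusted p = 4.0e-06), Ndufv1 (-0.12, adjusted p = 0.0106), Cox8a (-0.11, adjusted p = 6.6e-05) and Atp5b (-0.07, adjusted p = 6.1e-10). Ndufb7, Ndufv2 and Atp5g3 were called higher under some scalings, with log2 ratios of 0.16, 0.10 and 0.09. Members of the same complex thus differed in opposite directions, in complexes I, IV and V. The median log2 ratio of replicate 2 over replicate 1 was 0.03 over subunit genes, against -0.001601 over all genes kept. Of the members 61 of 89 were higher in replicate 2, called or not, against 49.3% of all genes kept. Among the other pathway genes, Usmg5 was called higher in replicate 2 (log2 ratio 0.20, adjusted p = 1.0e-08), and Etfdh (-0.14, adjusted p = 0.0323) and the regulator gene Yy1 (-0.15, adjusted p = 1.7e-04) lower, 3 of the 57 pathway genes on that list. Of the 13 mitochondrially encoded subunit genes 10 were kept for the test and 6 were called, all of them higher in replicate 2, also under the other scalings. They were 4 of 7 of complex I, mt-Cytb of complex III (log2 ratio 0.12, adjusted p = 3.3e-60), 1 of 3 of complex IV and none of 2 of complex V. The one of complex IV was mt-Co1 (0.04, adjusted p = 1.7e-21), which shares 51.1% of its windows, as the called mt-Nd4 shares 62.2%, so that both ratios are uncertain. The called mitochondrially encoded genes had 15131 counts or more in each library, where small ratios are called. Those not called had 51 counts or fewer, except mt-Nd2 at 38938 and 37456 counts. The split by complex therefore cannot be told apart from the counts. Of the 5 epithelial markers, Cdh1 (-0.08, adjusted p = 5.1e-09) and Krt8 (-0.06, adjusted p = 8.2e-04) were called lower in replicate 2.

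**Figure D5:**
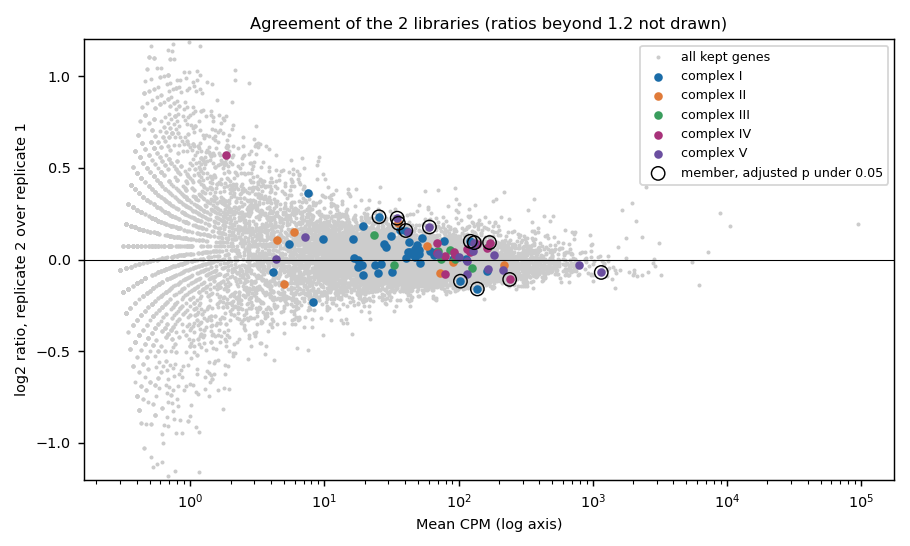
Log2 ratio of replicate 2 over replicate 1 against mean CPM (log axis) for each member kept for the test, coloured by complex, over all genes kept (grey). Rings mark called members. The called ratios of subunit genes lie between -0.16 and 0.23, on both sides of 0.

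Shared sequence touches many members. Over all members, 45 share no 50-base window with a transcript of another gene, 25 share over 10% of their windows and 2, Atp5l and Sdhaf1, over 50%. Among partners are annotated pseudogenes for 35 members. How the counting handled reads matching more than 1 gene is not stated in the sources used here. The 23 subunit genes that share over 10% had a median of 49.1 CPM per kb, against 40.4 for the 51 that share less. Spearman's rho between level per kb and exonic length was -0.44 across the 74 subunit genes, against -0.16 across all detected protein-coding genes. It is given as a description, since genes are not independent replicates and length is the divisor of the level.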

How the data were processed

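RNA was extracted on columns, treated with DNase and made into stranded mRNA libraries, per the labels' protocols. The deposited values are raw counts, whole numbers by gene symbol, made by the authors. Their tools, per the submitters' processing notes, include STAR 2.7.9a and featureCounts, on the build mm10, with FastQC 0.11.9, Cell Ranger 3.0.0 and R 4.1.1 also listed. Nothing there says which did what, and the annotation, the strand setting and the handling of multiply matching reads are not stated in the sources used here. Reads of overlapping genes or similar copies can therefore be split, lost or doubled.

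The members, the lists and the alternatives were chosen with earlier results of these data known. Named genes are, per complex and class, the 3 highest and 3 lowest per kb, every undetected or called member, isoform sets and complex II, and from the other lists the 2 highest, the 2 lowest and those under 1 CPM. Others were named after their values were seen, and some genes that the rule would name are not reported here. CPM used TMM scaling by edgeR 4.0.16 in R 4.3.3 (factors 1.005 and 0.995), and 98.2% of gene symbols matched 1 GENCODE M21 gene (GRCm38), which gave lengths, starts and transcripts. Where a symbol had several genes, as for Atp5o, the one nearest to the RefSeq gene was used. Differences are of median log2(CPM per kb + 1), with a pseudocount of 1, over detected members. Shared sequence is the share of 50-base windows with an exact match, on either strand, in a transcript of another gene. The exact binomial test ran in Python 3.11.15 with scipy 1.17.1 on genes kept by filterByExpr, and was checked on simulated counts. Those counts were drawn with counting error alone, so the check does not cover spread between libraries. The edgeR exact test used 1 common dispersion estimated over both libraries as 1 group (coefficient of variation 3.12%). With a single group of 2 libraries no quasi-likelihood test between conditions exists. Intervals and floors cover counting error only, since reads carry no molecular identifiers. The binomial p-values likewise rest on counting error alone and hold no estimate of the spread between libraries. Differences between these libraries may be technical. Alternatives were other scalings, including DESeq2 1.42.0 size factors, other lengths, pseudocounts, minimums and summaries, and each library alone. The principal transcript length (APPRIS), the share of counts and the 100 CPM count under other totals were added after seeing the data.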

Additional observations from a re-analysis of the deposited data

How the results depend on the processing

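The subunit minus assembly factor, complex V minus complex I and common minus restricted differences kept their direction under every alternative run for them. Other group orders did not all hold, as complexes II and I changed places on principal transcript length. The split of called members turned round by total counts (5 higher and 8 lower, against 8 and 4). No paired analysis was possible because the labels give 1 group. The subunit minus assembly factor difference (2.67) was 2.99 without division by length, 3.07 on median transcript length, 2.98 on principal transcript length, 2.85 and 2.13 with pseudocounts of 0.1 and 5, 2.78 with means, 2.45 over all members and 2.54 without the members sharing over 50% of windows. The complex V minus complex I difference (1.10) was 1.38, 1.38 and 1.31 under the same lengths, 1.13 and 1.00 with these pseudocounts, 0.78 with means, 1.13 without members sharing over 50%, 1.05 with Ndufa4 in complex I and 1.10 with the abundant genes Gm26917 and Gm42418 out of the totals. The common minus restricted difference (6.71) was 9.32 and 4.68 with these pseudocounts, 6.80 without division by length and 7.30 on principal transcript length. Called members numbered 12 by the binomial test, 11 to 14 under other scalings, 9 without a filter and 15 among genes of 10 CPM or more, but 0 by edgeR's exact test, where 7 had an unadjusted p under 0.05. The dispersion of the edgeR test takes in the differences between the libraries, so its 0 calls are no check on the others. The members' share of counts (0.795%) was 0.888% without Gm26917 and Gm42418. With each library alone the differences ran from 2.66 to 2.69, 1.10 to 1.10 and 6.65 to 6.77, the share from 0.791% to 0.800%, the detected members stayed at 89 and those at 100 CPM at 23. Members at 100 CPM numbered 22, and 29 with Gm26917 and Gm42418 out of the totals. Detected members numbered 84 at a minimum of 5 CPM. The cause of the moves was not tested beyond the settings themselves. Depth limits the alternative forms, whose counts of 0 to 75 leave ratios loose.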

Other observations

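Many members lie back to back with another gene. Of the 89 detected members, 23 (25.8%) have a protein-coding neighbour that starts within 1000 bases in the opposite direction, against 11.2% of detected protein-coding genes, as a description. The closest pairs were Ndufa7 and Rps28 (10 bases apart), Ndufb9 and Tatdn1 (18 bases apart) and Sdha and Ccdc127 (29 bases apart). Rps28, a ribosomal protein gene, had 239 and 236 CPM, beside 41.5 and 42.8 CPM for Ndufa7. Of the 23 neighbours 18 were detected. The 5 that were not include Morn5 beside Ndufa8, Gdf9 beside Uqcrq, Asb15 beside Ndufa5 and Gm27021 beside Cox4i1. Gdf9, an oocyte growth factor gene, had 0 and 0.0295 CPM with 73.8 and 73.9 CPM for Uqcrq, 192 bases away. Uqcrq and its neighbour thus differed widely in level over a short distance. The members lie on 19 chromosomes, with Ndufa1, Ndufb11 and Cox7b on the X.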
